A study of Rattus norvegicus with 8 samples.

Results

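Expression of 10 rat genes for ubiquitin ligases, or for ligase subunits that pick the substrate, was followed after a single testosterone dose. They are Klhl38, Asb2, Fbxo31, Fbxo40, Fbxo30, Fbxo21, Nedd4, Trim32, Cblb and Traf6, and all have been studied in muscle that gains or loses mass. The genes were chosen by name, with earlier results of these data known. The array carries 11 probes for them among 30367, with Fbxo21 on 2 probes and the others on 1. Fbxo30 was printed 10 times on each array, so the 10 genes filled 20 of 42877 gene spots. A probe entered the test when control or treated RNA of either time, 4 groups in all, gave a signal well above background on 3 or more of its 4 arrays. That left 7 of the 10 genes among 10893 tested: Fbxo21, Cblb and Traf6 stayed too dim for a test.

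RNA of castrated adult male Wistar rats, aged 120 ± 12 days, was the control on every array. The other channel held RNA of castrated rats of the same strain and age that had received testosterone propionate, an injectable androgen ester, under the skin at 4 mg/kg in 1 mL/kg of corn oil, either 8 h or 24 h before. All groups therefore lack testes, and no intact animal was compared. There were 4 arrays a time, which the labels call biological replicates, and the dyes were exchanged on 2 of them. The dye of the treated RNA was Cy3 in 8 h replicates 1 and 2 and in 24 h replicates 3 and 4, and Cy5 in the other 4 arrays. The sources used here do not say if arrays with exchanged dyes repeat the same extracts, if RNA came from single animals or pools, if controls were injected with oil, or if the controls of both times are the same RNA. The p-values measure the spread between these arrays. The series title names muscle atrophy and the labels name no muscle. Of 13 muscle fibre markers, 12 were measured above background, among them Acta1, Ckm and Myh4.

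A ubiquitin ligase passes ubiquitin from a conjugating enzyme to a chosen protein, which is then usually broken down by the proteasome. Most of these 10 genes encode the part that recognises the substrate within a cullin ligase. F-box proteins such as Fbxo31, Fbxo40, Fbxo30 and Fbxo21 bind Skp1 on cullin 1, Asb2 is a SOCS-box protein that binds elongins on cullin 5, and Klhl38 belongs to the BTB-Kelch family, whose members bind cullin 3. Cblb, Trim32 and Traf6 are RING ligases that bind the conjugating enzyme themselves, and Nedd4 is a HECT ligase that carries ubiquitin on its own cysteine. In muscle wasting, such ligases are known to mark contractile and signalling proteins, and the 2 best known, atrogin-1 (Fbxo32) and MuRF1 (Trim63), rise in many forms of atrophy.

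Every value below is read from a probe of 60 bases, and the first 30 bases are shown for the 5 genes whose ratios were below 0 on all 4 arrays at 24 h, since these letters say which stretch of each gene was measured.
Klhl38: tgttctcttccagactctaggaagctatca
Asb2: ttctaggaatgagttcacctagggatcctc
Fbxo31: cccttgtatagtgtgtaacatactcttgta
Fbxo40: cagttatcccaggtatcagtactgatgagg
Fbxo30: ctgaagagtcatggcacagtgtattatatg
On the rat build rn4 that the array files use, the whole probes lie at chr7:95042271-95042330 on the minus strand for Klhl38, chr6:127609550-127609609 on the minus strand for Asb2 and chr19:51822283-51822342 on the minus strand for Fbxo31. Those of Fbxo40 and Fbxo30 lie on the plus strand at chr11:65610216-65610275 and chr1:5991028-5991087. No genome of that build was used, so the exon or untranslated region that each probe reads is not given.

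At 24 h, 4 of the 7 tested ligases were lower in treated RNA and none was higher. Klhl38 fell most, to 26.0% of the control, and Asb2 fell to 36.3%, while Fbxo31 and Fbxo40 fell by 0.52 and 0.36 on the log2 scale. Fbxo30, Nedd4 and Trim32 did not pass. The test was limma's moderated test with a dye term and Benjamini-Hochberg adjustment over all genes, passed at an adjusted p under 0.05. Over all 10893 genes 2.91% passed in that direction (317 genes, against 452 higher, or 4.15%). The median log2 ratio of the 7 ligases was -0.36, beside 0.00 for all genes. In 5 of the 7, all 4 arrays were below 0, as in 13.7% of all genes. In 4 of the 7, all treated channel levels lay below all control levels, which held for 4.79% of all genes. Since the genes were chosen with earlier results of these data known, these counts are a description and no independent evidence. At 8 h no ligase passed, as against 0.0276% of all genes (3 of 10889), and their median was -0.07 beside -0.01. Unadjusted p-values under 0.05 were reached at 8 h by 2 of the 7 (Klhl38 and Fbxo31) and by 17.1% of all genes. Without replicate 2 of 8 h, 1232 genes passed at 8 h and again none of the 7 ligases. At 24 h the count of ligases was 2, Klhl38 and Asb2, without replicate 1, 2 or 3 of that time, and 1, Klhl38, under median centring of each array. For the difference between times only Klhl38 passed, beside 1.29% of all genes in either direction and 0.569% in the lower one.

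**Figure D1:**
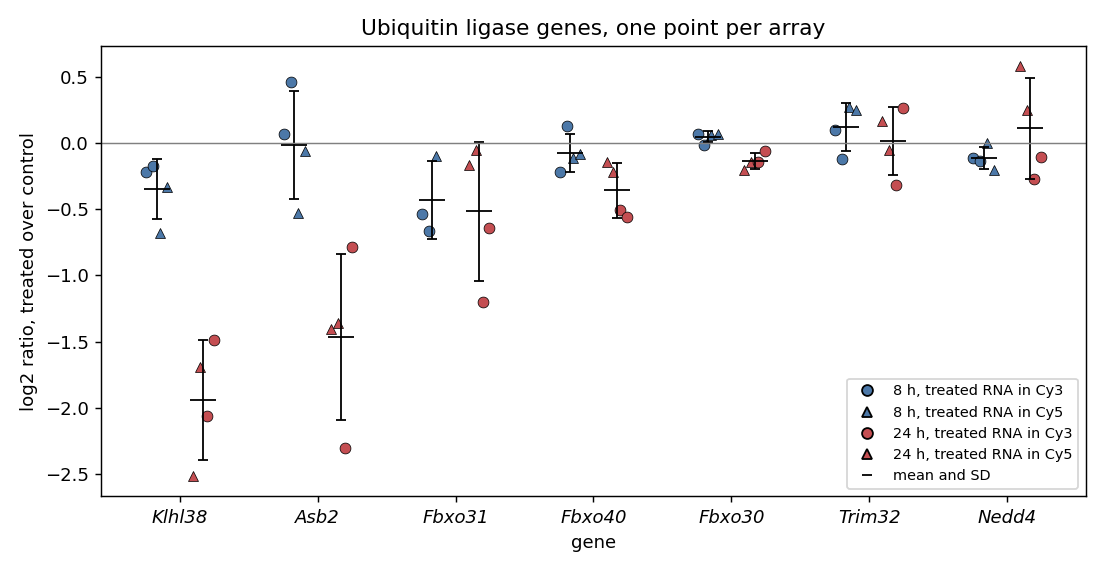
Log2 ratio of treated over control (vertical axis) of the 7 tested ligases on each array at 8 h and at 24 h; points are single arrays, coloured by time and shaped by the dye of the treated RNA, and bars are the mean with its SD. Klhl38 and Asb2 lie far below 0 on all 4 arrays at 24 h. At 8 h Klhl38 lies between -0.68 and -0.17 and Asb2 between -0.53 and 0.46.

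Klhl38 is a BTB-Kelch protein that is abundant in striated muscle, and its substrates are not well described. At 24 h its normalized intensity in treated RNA was 114.8, 151.3, 107.8 and 146.1 in replicates 1 to 4, against 655.7, 489.8, 451.2 and 410.4 in control RNA on the same arrays. The highest treated value lay far below the lowest control value. The log2 ratios were -2.51, -1.69, -2.07 and -1.49, a mean of -1.94 (SD 0.45, n = 4 arrays, 95% interval -2.24 to -1.64, limma adjusted p = 6.86e-05), which is 3.84-fold lower. It was the fourth largest fall of all genes. The offset of 50 in the background correction presses dim signals towards each other, and the ratio was -2.55 with offset 0 (adjusted p = 2.24e-05) and -2.59 from the scanner's processed signals (adjusted p = 0.000448). At 8 h treated RNA gave 408.2, 457.8, 399.1 and 357.3 and control RNA 475.7, 514.8, 637.7 and 448.7. These groups overlapped, although each array on its own had the treated value below the control, with ratios from -0.68 to -0.17 (mean -0.35, SD 0.23, limma adjusted p = 0.268). The difference of the ratios, 24 h less 8 h, was -1.59 (SE 0.19, 95% interval -2.01 to -1.17, limma adjusted p = 0.00723). Control levels were 9.01 ± 0.22 at 8 h and 8.95 ± 0.29 at 24 h on the log2 scale (SD, n = 4), and treated levels were 8.66 ± 0.15 and 7.01 ± 0.25. Each time lies on a slide of its own, and effects of time and slide cannot be told apart. With median centring in place of loess the difference between times was -1.63 with an adjusted p of 0.304.

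Asb2 directs filamins to breakdown in blood and muscle cells, and raising it in mouse muscle lowers muscle mass. Its intensities at 24 h were 5758, 6347, 2526 and 4209 in treated RNA and 15250, 16260, 12450 and 7270 in control RNA. The groups did not overlap, and replicate 3 had both the lowest treated value and the widest gap. The log2 ratios were -1.41, -1.36, -2.30 and -0.79 (mean -1.46, SD 0.63, n = 4 arrays, 95% interval -1.93 to -0.995, limma adjusted p = 0.00377), or 2.76-fold lower, the ninth largest fall of all genes. At 8 h the treated values of 9310, 11480, 7117 and 6074 lay among the control values of 8873, 8353, 10250 and 6314. The ratios there were 0.07, 0.46, -0.53 and -0.06, with 2 above and 2 below 0 (mean -0.01, SD 0.41, limma adjusted p = 0.979). The difference between times was -1.45 (95% interval -2.11 to -0.79), just outside the threshold (limma adjusted p = 0.0501), and it passed under 12 of 21 other settings with adjusted p-values from 0.0198 to 0.373. Control levels were 13.02 ± 0.29 at 8 h and 13.58 ± 0.53 at 24 h on the log2 scale (SD, n = 4). Treated levels were 13.01 ± 0.41 and 12.12 ± 0.60. The difference thus holds a higher control level at 24 h as well as a lower treated level. Median centring gave -0.998 at 24 h with an adjusted p of 0.0702, where loess gave a call.

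Among the F-box genes, Fbxo31 directs cyclin D1 to breakdown after DNA damage in human cells. Its treated intensities at 24 h were 2083, 1764, 897.5 and 1071 and its control intensities 2332, 1826, 2068 and 1673. The groups overlapped: replicates 1 and 2 hardly differed between channels, and replicates 3 and 4 were clearly lower in treated RNA. The ratios of -0.16, -0.05, -1.20 and -0.64 averaged -0.52 (SD 0.53, n = 4 arrays, 95% interval -0.74 to -0.29, limma adjusted p = 0.0189). They followed the dye, with a mean of -0.11 where the treated RNA carried Cy5 and -0.92 where it carried Cy3. The model takes up such a shift with a dye term for each probe (0.35 for Fbxo31, limma adjusted p = 0.151), and without that term the adjusted p was 0.131 at the same ratio of -0.52. The call was also lost without replicate 1, 2 or 3 of 24 h, at ratios of -0.52, -0.57 and -0.37 (adjusted p = 0.111, 0.0552 and 0.0599), and with offset 0 at -0.52 (0.0584). Under median centring the ratio was -0.09 (0.821). At 8 h the spot of replicate 4 carried an outlier flag and was left out, and the other 3 arrays stood at -0.53, -0.66 and -0.10. Treated levels lay below control levels on those 3 arrays, and the fitted value of -0.32 did not pass (limma adjusted p = 0.267).

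Fbxo40 is a muscle F-box protein that brings the insulin receptor substrate Irs1 to breakdown in mouse muscle cells. The probe was dim. At 24 h treated intensities were 71.04, 76.74, 69.73 and 65.14, of which only 2 of 4 stood well above background, and control intensities were 78.29, 89.28, 99.0 and 95.94. All treated values lay below all control values. The log2 ratios of -0.14, -0.22, -0.51 and -0.56 averaged -0.36 (SD 0.21, n = 4 arrays, 95% interval -0.54 to -0.17, limma adjusted p = 0.0354). Their mean was -0.18 where the treated RNA carried Cy5 and -0.53 where it carried Cy3 (dye term 0.07, limma adjusted p = 0.641). The treated values not well above background were those in Cy3. The setting of the background correction moved so dim a probe far: with offset 0 the ratio was -1.14 (adjusted p = 0.00890), and from the processed signals it was -2.03 (adjusted p = 0.0210). The processed signals held ratios of -0.89, -0.98, -4.00 and -2.26, and that of replicate 3 rested on a surrogate value which the scanner software sets for a spot it cannot measure. The call did not survive leaving out any array of 24 h, with adjusted p-values from 0.0973 to 0.151, nor leaving out replicate 3 or 4 of 8 h (0.0587 and 0.0546) or median centring (0.0544). At 8 h the ratios ran from -0.22 to 0.13 and treated and control levels overlapped (mean -0.07, SD 0.14, limma adjusted p = 0.678).

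Fbxo30, known as MUSA1, is held down by BMP signalling in mouse muscle and rises after denervation there. Its ratios at 24 h were -0.21, -0.14, -0.14 and -0.06, each the mean of between 8 and 10 spots (mean -0.14, SD 0.06, n = 4 arrays, 95% interval -0.28 to 0.00). All 4 were below 0 and the levels of the groups did not overlap, but the value did not pass (limma adjusted p = 0.237). The probe stood well above background on 1 of 4 treated and 2 of 4 control arrays at 24 h, and its repeated spots had an SD of 0.0854 to 0.151 within an array. From the processed signals the ratios were -0.80, -1.18, -1.21 and -0.68, which passed at 24 h (-0.97, limma adjusted p = 0.0137) and between times (-1.38, adjusted p = 0.0391). Fbxo30 entered the test only through treated RNA of 8 h, above background on 4 of 4 arrays and the group with its highest mean level, so the filter favoured that difference between times and it is no independent result. At 8 h the ratios of 0.07, -0.02, 0.06 and 0.07 lay close to 0 (mean 0.05, SD 0.04, limma adjusted p = 0.709), with the levels of both groups overlapping. Fbxo21, called SMART in mouse muscle, was not measurable. Its 2 probes, which the files place at chr12:39719654-39719683 and chr12:39728093-39729663 on the minus strand, stood above background on no control array and on at most 2 of 4 treated arrays. Their ratios ran from -0.07 to 0.07 and from -0.19 to 0.22 over the 8 arrays. No fold or bound is given, since the treated channel was itself above background on no more than 2 of 4 arrays at either time.

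**Figure D2:**
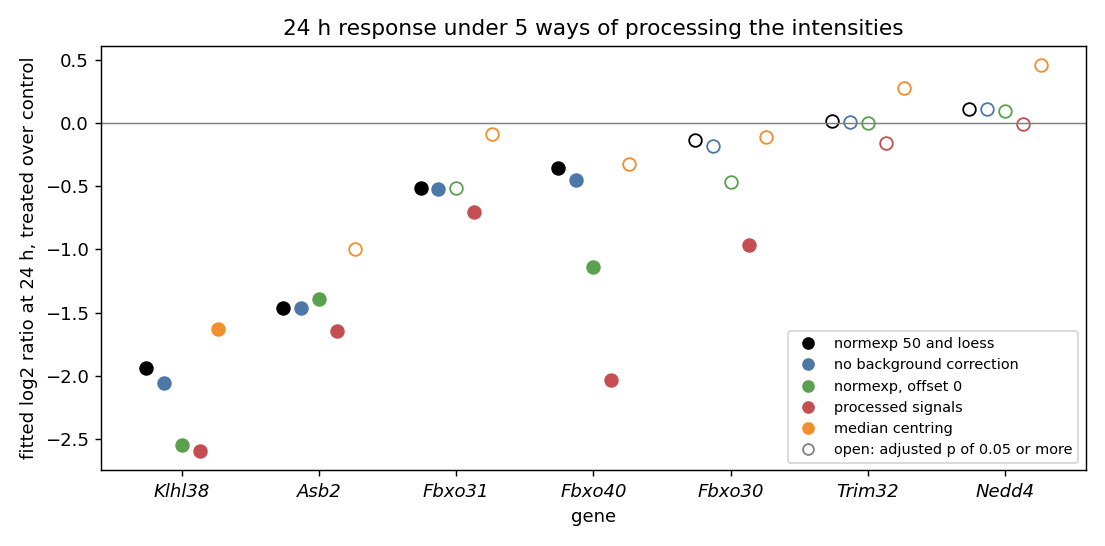
Fitted log2 ratio of treated over control at 24 h (vertical axis) of the 7 tested ligases under 5 ways of background correction and scaling, one colour each; filled points passed an adjusted p of 0.05 and open points did not. Klhl38 is filled throughout, at -1.63 to -2.59, and the dim probe of Fbxo40 runs from -0.32 to -2.03 and that of Fbxo30 from -0.11 to -0.97.

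The HECT and RING ligases gave no call at either time. Nedd4, which rises in unloaded and denervated rodent muscle and acts on membrane and signalling proteins, had ratios of 0.58, 0.25, -0.27 and -0.10 at 24 h (mean 0.11, SD 0.38, 95% interval -0.11 to 0.34, limma adjusted p = 0.585). The signs followed the dye, above 0 with the treated RNA in Cy5 and below 0 with it in Cy3, and the levels overlapped. At 8 h its ratios ran from -0.20 to 0.00 (mean -0.11, SD 0.09, limma adjusted p = 0.569). Trim32, which binds desmin and thin filament proteins and is mutated in a human limb-girdle muscular dystrophy, had ratios of 0.17, -0.05, -0.31 and 0.27 at 24 h (mean 0.02, SD 0.26, 95% interval -0.20 to 0.23, limma adjusted p = 0.954). Treated and control levels overlapped, and at 8 h its ratios ran from -0.12 to 0.27 (mean 0.12, SD 0.18, limma adjusted p = 0.512). Responses within these intervals are not excluded by these arrays, and the intervals are no limit of detection. Cblb, which marks Irs1 in unloaded rodent muscle, stood above background on at most 2 of 4 arrays of any group, with ratios between -0.15 and 0.08. Traf6, which builds signalling ubiquitin chains and is needed for full atrophy in mice, was above background on no array. Its ratios ran from 0.09 to 0.17 at 8 h and from -0.12 to 0.02 at 24 h, near the floor where ratios carry little information on RNA level.

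**Figure D3:**
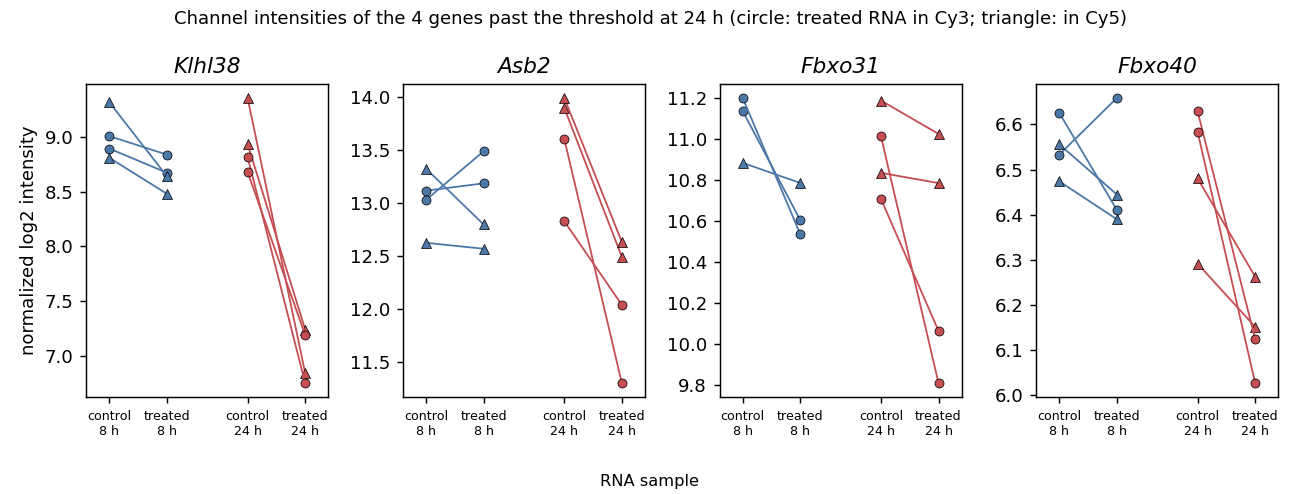
Normalized log2 channel intensity (vertical axis, on a scale of its own for each gene) of the 4 ligases called at 24 h, in control and treated RNA at 8 h and 24 h; a line joins both channels of an array, and the shape gives the dye of the treated RNA. At 24 h the treated levels of Klhl38, Asb2 and Fbxo40 lie wholly below the control levels, and those of Fbxo31 overlap them.

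No tested gene of the cullin machinery that these ligases plug into passed as lower. Of 20 genes of the cullin ligase core, 18 were tested, and at 24 h 2 rose, none fell and 16 did not pass (median 0.04). Rbx1, the RING subunit of most cullin ligases, rose by 0.34 (limma adjusted p = 0.0352), and Rnf7, the RING subunit paired with cullin 5, rose by 0.34 (limma adjusted p = 0.0488). Both kept their sign but lost the call with median centring, with offset 0 and with processed signals. The adaptor Skp1 stood at 0.05, Cul1 at 0.09 and Cul5 at 0.20, none past the threshold, and Cul3 was too dim to test. Among 20 other ubiquitin ligases studied in muscle, 14 were tested and 2 fell, Fbxo32 (-2.48, limma adjusted p = 0.000138) and Trim63 (-0.68, limma adjusted p = 0.0206), with a median of -0.07. Fbxo32 had ratios of -2.40, -2.04, -3.16 and -2.30 at 24 h, below those of Klhl38 on each array except replicate 1.

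Known substrates and partners of the 10 ligases mostly did not pass: of 21 genes 16 were tested, 1 rose, 2 fell and 13 did not pass (median 0.04). Ndrg2, a stress-response protein of muscle, fell by 0.50 (limma adjusted p = 0.0395), and the SUMO ligase Pias4, a Trim32 substrate, fell by 0.39 (limma adjusted p = 0.0380). Irs1, the shared substrate of Fbxo40 and Cblb, stood at 0.05 (limma adjusted p = 0.780). Of 16 signalling partners of Traf6, 12 were tested and only the ubiquitin-binding scaffold Sqstm1 passed, lower by 0.55 (limma adjusted p = 0.0250; median 0.05). Of 19 regulators that act on atrophy ligases, 14 were tested, with 2 higher and 3 lower (median -0.12). The glucocorticoid-induced factor Klf15 fell by 1.10 (limma adjusted p = 4.23e-05) and the deacetylase Hdac4 by 0.84 (limma adjusted p = 0.00432). Fst, the antagonist of myostatin, rose by 0.73 (limma adjusted p = 0.00299), and Myog, which switches on Fbxo32 and Trim63 in denervated mouse muscle, rose by 0.37 (limma adjusted p = 0.0396). The forkhead factor Foxo3 stood at -0.25 (limma adjusted p = 0.0855), and no probe carried the name Foxo1. Foxo3 passed as lower with offset 0 (-0.81, limma adjusted p = 0.0206) and with processed signals (-1.57, limma adjusted p = 0.00141). It did not pass under median centring (-0.25, limma adjusted p = 0.103). No gene of these 5 lists passed at 8 h. Every gene named from these lists as changed kept its sign under median centring, offset 0 and processed signals. Under median centring only Fbxo32, Klf15, Hdac4 and Fst among them kept the call. There Ndrg2 stood at -0.04 and Sqstm1 at -0.21. Ndrg2 also lost its call with offset 0 (adjusted p = 0.128) and with processed signals (0.333), and Sqstm1 with processed signals (0.0727).

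Markers of cell types moved at 24 h as well, and in bulk RNA fewer cells of a type and less RNA per cell cannot be told apart. The summed intensity of the 12 measured muscle fibre markers was 165300 to 185800 in treated and 210100 to 243500 in control RNA, without overlap, and their median ratio was -0.37; Acta1 fell by 0.44 and Actn3 by 0.55, while Myh1 rose by 1.33. Acta1 and Actn3 did not pass under median centring, offset 0 or processed signals. The direction of the list rests on the scaling: with loess 9 of the 12 were below 0, and with median centring 10 of the 12 were above 0 (median 0.08), where the median of all genes was 0.15. The summed intensity of 9 measured macrophage markers of 11 was 5567 to 7470 in treated and 4309 to 5367 in control RNA, again without overlap. Of these, C1qa, C1qc, Cd163 and Lyz2 rose by 0.69, 0.43, 0.50 and 0.65. The other 5 did not pass and stood at 0.51 (Aif1), 0.37 (C1qb), 0.08 (Csf1r), -0.02 (Cd68) and -0.10 (Itgam). Lyz2 lost its call with median centring (adjusted p = 0.0722) and with processed signals (0.121). Of the 7 fibroblast markers 6 were measured, with sums of 3806 to 6046 against 2116 to 2662, and Col1a1 and Col3a1 rose by 1.54 and 1.48. The other 4 did not pass and stood at -0.25 (Lum), -0.05 (Dpt), -0.03 (Pdgfra) and -0.0020 (Dcn), and the median of the list was -0.02 with loess and 0.29 with median centring. Lum passed as lower with offset 0 (-0.67, limma adjusted p = 0.0394) and with processed signals (-0.83, limma adjusted p = 0.0258). Of 7 measured endothelial and mural cell markers, 4 were above 0 and 3 below (median 0.06), and only Kdr passed, at 0.36, a call lost with offset 0 (adjusted p = 0.0944) and with processed signals (0.0858). Of 3 adipocyte markers Fabp4 rose by 0.43. No marker passed among 5 of Schwann cells, 4 of satellite cells, 2 of erythrocytes and 2 of lymphocytes and granulocytes, where 6 of 8 were too dim to test. The erythrocyte markers were uneven, with medians of -1.63 and -2.21 on replicates 1 and 3 of 8 h and 1.83 on replicate 3 of 24 h. On the other arrays they lay between -0.21 and 0.42. Replicate 3 of 24 h also had the lowest muscle fibre median, -0.58. Asb2 and Fbxo31 had their lowest 24 h ratios on that array, Klhl38 and Fbxo40 on others. The Schwann cell marker S100b, at 0.16, passed as higher with offset 0 (0.67, limma adjusted p = 0.0313) and with processed signals (1.38, limma adjusted p = 0.00967). At 8 h the muscle fibre sums overlapped, 164500 to 244800 in treated and 171600 to 223600 in control RNA. The macrophage markers had a median of -0.35 at 8 h, with array medians from -0.77 to -0.09. Col1a1 and Col3a1 stood at -0.56 and -0.60 there, and no marker passed. Between times 3 macrophage, 2 fibroblast, 1 adipocyte and 1 muscle fibre marker passed as higher and none as lower. Time and slide cannot be told apart in that comparison. The part of these shifts in the ligase values was not tested.

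The genes whose 8 array ratios were most like those of a ligase were found by the root mean square difference among 7664 other named genes; the arrays share dyes and slides, and the likeness is a description. Nearest to Klhl38 were Mettl7a (0.268), the thin filament protein Lmod2 (0.364) and the mitochondrial carrier Ucp3 (0.416). Nearest to Asb2 were the water channel Aqp4 (0.308), Zfand5 (0.350), a zinc finger protein that activates the proteasome, and the autophagy protein Gabarapl1 (0.438). Fbxo40 had Rmnd5a (0.0704), a ubiquitin ligase subunit, Acta1 (0.0962) and Hrh3 (0.106) as its nearest, and Fbxo31, over 7 arrays, Znrf4 (0.250), Rasd2 (0.274) and Mospd1 (0.294). The smaller distances of Fbxo40 and Fbxo31 go with ratios nearer to 0.

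Promoters of 8 of the 10 ligases were in the RefSeq table for the build GRCr8, as 250 bases before and 50 after the annotated start; Klhl38 and Traf6 had none. The forkhead (FoxO) motif GTAAACA, searched on both strands, was in none of the 8 and in 3.76% of 27457 promoters, and the MEF2 motif was in none of them and in 0.605% of all. The hexamer AGAACA, searched as a site of both the glucocorticoid and the androgen receptor, was in 1 of the 8, Asb2, and in 20.1% of all promoters. The full element, with the hexamer on both strands around a spacer of 3 bases, was in none of the 8 and in 0.00728% of all. The E box CAGCTG was also only in Asb2 among the 8, and in 15.1% of all. The 2 motifs do not overlap, and the Asb2 promoter, at chr6:128275601-128275900 on the minus strand, is shown since it alone among the 8 held any motif searched; capitals mark the E box, 10 bases before the start, and the receptor hexamer on the opposite strand, 36 bases after it.
Asb2 promoter: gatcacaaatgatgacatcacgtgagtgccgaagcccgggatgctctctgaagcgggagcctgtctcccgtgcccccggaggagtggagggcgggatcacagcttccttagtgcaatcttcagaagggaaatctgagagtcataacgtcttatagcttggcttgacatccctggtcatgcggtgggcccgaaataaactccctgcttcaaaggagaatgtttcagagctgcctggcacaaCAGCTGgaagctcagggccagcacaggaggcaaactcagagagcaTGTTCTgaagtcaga
Such matches are letters in a window and show no binding. By base composition the 8 ran from 50.3% G and C in Fbxo40 and 54.3% in Asb2 to 75.3% in Nedd4 and 77.3% in Fbxo30, beside a median of 52.3% over all promoters.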

How the data were processed

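RNA of castrated control and testosterone-treated rats was hybridised in pairs on 8 Agilent 2-colour arrays, and samples were grouped by the time in their labels. Per the labels' protocols, Trizol served for extraction and a Quick Amp kit for labelling. The submitters' processing notes name Agilent Feature Extraction 9.5.3.1 as the scan software. The mean signals and local backgrounds deposited are linear intensities without normalization, per the file headers, whereas processed signals hold intensities that the software had already corrected for background and dye. The deposited LogRatio column, log10 of Cy5 over Cy3 per the file headers, was not used. The authors' deposited value table holds log2 ratios of unstated scale, centring and direction; set beside ratios of the processed signals, treated over control, it differed by at most 1.4e-05 on the log2 scale, and served as an alternative.

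In limma 3.58.1 (R 4.3.3), normexp with an offset of 50 corrected the mean signals for background, and loess then normalized each array. Between 731 and 927 outlier-flagged spots an array and all control spots were left out; no spot of the 10 genes was saturated. Log2 ratios were turned to treated over control and averaged per probe. The filter kept 12074 of 30367 probes, and the brightest kept probe stood for each of 10893 genes, 7705 of them with a symbol. Channel levels were also quantile-normalized on mean brightness between arrays. The model held a coefficient for each time and a dye coefficient over all 8 arrays, and lmFit and eBayes gave two-sided tests. The number of arrays limits the precision. The fit was tested on simulated data. Over genes, the SD of log2 ratios was 0.444 on replicate 1 of 8 h and 0.180 to 0.201 on the other arrays of 8 h, against 0.236 to 0.307 at 24 h. Correlations between arrays over genes were -0.13 to 0.37 at 8 h and 0.23 to 0.71 at 24 h.

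The 10 genes, the gene lists and the tests were chosen with earlier results of these data known. Genes named were the 10 ligases, those of each list past the threshold at 24 h (up to 4 with the smallest p), 9 chosen by name, and the 3 genes most like each ligase called at 24 h. Of the genes this rule names, 2 are not reported here. Alternatives covered scaling, background correction, the dim-probe filter, dye term, array weights, flagged spots, choice of probe, replicate block, arrays of 1 time alone and each array left out. Replicate numbers were checked for pairing: same-numbered arrays of both times had deviations correlating between -0.26 and 0.17, so they were not treated as pairs.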

Additional observations from a re-analysis of the deposited data

Results flagged for a closer look

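The response of Klhl38 differed between the times, with a difference of the log2 ratios, 24 h less 8 h, of -1.59 (limma adjusted p = 0.00723). Time and slide cannot be told apart. Of 21 combinations of a ligase probe and a time examined for an array far from the other 3, 1 stood out: replicate 2 of Fbxo30 at 8 h, at -0.016, where the other 3 arrays lay between 0.06 and 0.07. Its gap to the nearest array was a share of 0.902 of the range, above Dixon's critical value, which chance passes in about 1 of 20 groups. The 10 spots of Fbxo30 on that array ran from -0.25 to 0.15, wider than the gap.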

How the results depend on the processing

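The ligase values at each time and between times were recomputed under 22 alternatives, and 403 of 449 kept their direction and their side of the threshold. A call was gained by 16 and lost by 15, and 15 changed sign. Not all 449 are separate checks. The authors' table repeats the processed signals to within 1.4e-05. Each tested ligase has 1 kept probe, so the choice of probe left its ratio as it was. Leaving out an array of the other time left most ratios at a single time unchanged. Klhl38 kept its call at 24 h under all 22 (adjusted p from 8.75e-06 to 0.0162) and Asb2 under 21. The strict dim-probe filter left Fbxo40 and Fbxo30 untested. Of the tested ligases, 4 passed at 24 h, 5 with processed signals, 1 under median centring and 2 to 4 with an array left out (2 without replicate 1, 2 or 3 of 24 h). At 8 h none passed under any alternative. Between times 1 passed, 0 under median centring, 2 under array weights, no background correction, offset 0, flagged spots kept, every probe tested and the strict filter, 3 with processed signals or the authors' table, and 1 to 2 with an array left out (2 without replicate 2 of 8 h or replicate 3 or 4 of 24 h).

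Over all genes, 769 passed at 24 h, 1562 with array weights, 1593 with arrays of 1 time alone, 401 with median centring and 189 (without replicate 1 of 24 h) to 1235 (without replicate 1 of 8 h) with an array left out. Of those 401, 95.5% were higher (383 higher, 18 lower), against 58.8% with loess, and the median of all genes moved to 0.15 at 24 h and 0.12 at 8 h. At 8 h 3 passed, 8 with offset 0, 1 with processed signals, the authors' table or no dye term, 0 with median centring or 1 time alone, and 0 to 1232 with an array left out (1232 without replicate 2 of 8 h, at most 1 without any other). Between times 141 passed, 285 with array weights, 86 with processed signals or the authors' table, 93 without the dye term, 0 with median centring and 29 (without replicate 1 of 24 h) to 591 (without replicate 2 of 8 h) with an array left out. The replicate block gave 834, 7 and 307 genes and 4, 0 and 2 ligases at 24 h, 8 h and between times; Asb2 then passed between times (adjusted p = 0.0198), and 1 of 4 arrays correlated best with its own number.

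Changes of sign were all among values that did not pass. Nedd4 at 24 h stood at -0.0047 with processed signals or the authors' table, and ran from -0.012 (without replicate 1) to 0.20 with an array of 24 h left out. Trim32 at 24 h stood at -0.16 with processed signals or the authors' table, -0.0083 with array weights, and -0.01 without replicate 1, and ran from -0.12 (without replicate 4) to 0.11 with an array left out. At 8 h median centring gave 0.48 for Asb2, 0.030 for Fbxo31, 0.0067 for Klhl38 and 0.22 for Nedd4, and Asb2 stood at 0.058 with processed signals or the authors' table and ran from -0.16 to 0.15 (without replicate 3) with an array left out. Their causes were not tested. The slide could not be fitted as a block, since each time lies on its own. Signals near background limit Fbxo40, Fbxo30, Fbxo21, Cblb and Traf6.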

Other observations

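Klhl38 and Fbxo32, the genes with the 2 largest falls among the ubiquitin ligases tested here, are neighbours on chromosome 7: no other protein-coding gene lies between them in the reference gene table of GRCr8, and on rn4 their probes are 109 kb apart on the minus strand. This was looked at after their values were seen. Of the 12 nearest protein-coding genes around Klhl38, 6 on each side, 10 have a probe and 3 were tested. Fbxo32 stood at -2.48 at 24 h and -0.74 at 8 h, Fam91a1 at 0.06 and 0.16, and Tmem65 at -0.33 and -0.39. At 24 h only Fbxo32 of these 3 passed (limma adjusted p = 0.000138, against 0.719 for Fam91a1 and 0.243 for Tmem65), and at 8 h none did. The other 7 with a probe, among them Anxa13 and Zhx1, were too dim to test, so their response is not known.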
